A study of Mus musculus with 8 samples.

Results

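The genes described here are 10 regulators of mRNA fate in male germ cells, namely *Dazl*, *Boll*, *Ybx2*, *Ybx3*, *Ythdc2*, *Meioc*, *Rbm46*, *Papolb*, *Cpeb1* and *Eif4g3*. They were picked by gene symbol from the 55357 genes of the deposited table, and all 10 were among the 20187 genes that reached a TPM (transcripts-per-million value, an estimate of reads corrected for gene length and depth) of 1 or more in at least 1 sample. RNA was sequenced from germ cells of 8 C57BL/6 males aged 15 days, with 1 library for each mouse. Both genotypes carried homozygous floxed alleles of *Mgat2*, which encodes a Golgi enzyme of complex N-glycan synthesis. The 4 control males were *Mgat2*[F/F], and the 4 conditional knockout (cKO) males were *Mgat2*[F/F]:*Stra8*-iCre, in which Cre recombinase is made in spermatogonia. Controls carried no Cre transgene, so a difference between genotypes cannot be told apart from an effect of the transgene itself. Non-stranded libraries of polyadenylated RNA were used, and enzymatic dissociation of testis tubules, without a sort, gave the cells.

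Germ cells rely on control of mRNA after transcription, because they make many messages well before the protein is needed and later shut transcription down altogether. RNA-binding proteins store such messages, change the length of their poly(A) tails, hand them to ribosomes or send them for decay. DAZ family and CPEB proteins act on translation, Y-box proteins package stored mRNA, YTHDC2 with MEIOC and RBM46 clears transcripts of the mitotic programme at meiotic entry, PAPOLB lengthens poly(A) tails in the cytoplasm, and EIF4G3 is a scaffold of the complex that brings ribosomes to capped mRNA.

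Normalized expression is given in counts-per-million units (CPM) scaled by the TMM method of edgeR, and a log2 fold change is always cKO over control. Summed expected counts per library lay between 12584726 and 15907505 in controls and between 14069373 and 15572196 in cKO. A count of 3, taken as the least a library can show, was worth 0.19 to 0.234 CPM, a limit that covers counting error only, and every value of the 10 genes was far above it. In the controls the targeted gene *Mgat2* averaged 56.4 ± 16.9 CPM, and in the cKO samples 27.2 ± 10.8 CPM (SD, n = 4) (log2 fold change -1.05, standard error SE 0.36, edgeR adjusted p = 0.47, DESeq2 adjusted p = 0.0252), and the genotypes overlapped. *Mgat2* thus passed with DESeq2 and not with edgeR. Markers of spermatogonia and early spermatocytes were present in all 8 libraries, with summed levels of 149 to 215 TPM for undifferentiated spermatogonia and 1006 to 1655 TPM for leptotene and zygotene spermatocytes. Sertoli cell markers were also high, at 6318 to 7826 TPM in control and 6687 to 7841 TPM in cKO, led by *Clu* and *Aard*. The label of germ cells therefore covered a mixture that included Sertoli cell RNA, at levels that overlapped between genotypes. Summed markers of Leydig cells were at 36.3 to 94.7 TPM and those of endothelium at 5.07 to 11.5 TPM over the 8 libraries. Peritubular myoid cell markers lay between 350 and 660 TPM, erythroid markers between 58.4 and 201 TPM and macrophage markers between 20.7 and 40.2 TPM, and no gene of any of these lists passed with edgeR. Replicate 1 stood apart in both genotypes, in several marker lists. In each genotype it had the lowest Sertoli cell markers, at 6318 TPM in control 1 and 6687 TPM in cKO 1. Its peritubular, endothelial, erythroid, and leptotene and zygotene markers were also the lowest of each genotype. Markers of differentiating spermatogonia were highest in replicate 1, at 460 TPM against 318 to 368 TPM in the other controls. In cKO they were at 485 TPM against 348 to 374 TPM. Summed markers of pachytene spermatocytes were 2665 TPM in control 1 against 687 to 1150 TPM in the other controls, and 896 TPM in cKO 1 against 313 to 373 TPM in the other cKO libraries. Results are therefore given for all 8 samples and for replicates 2 to 4 of each genotype alone.

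None of the 10 genes passed an adjusted p of 0.05 in edgeR's quasi-likelihood test over all 8 samples without a block, where 8 of 20187 genes (0.0396%) did. DESeq2, which called 1.5% of all genes, and limma-voom, which called 0 of all genes, also picked 0 of the 10. At an unadjusted p under 0.05 edgeR picked 5 of the 10, with *Boll*, *Ybx2*, *Ybx3* and *Eif4g3* lower and *Dazl* higher in cKO, against 6.28% of all genes lower and 2.62% higher. The call depended on the replicate number, which the samples of both genotypes carry but which no source says pairs the mice. With this number as a replicate block edgeR called 5 of the 10, *Boll*, *Ybx3*, *Papolb* and *Eif4g3* lower and *Dazl* higher, where it called 7.25% of all genes, 6.45% lower and 0.802% higher. In 9 of the 10 the estimate was below 0, against 48.6% of all genes tested. The 9 included *Ythdc2* at -0.01 and *Cpeb1* at -0.08, whose signs changed in some other settings. The median log2 fold change of the 10 was -0.27, against 0.007 over all genes tested. Every cKO library was below every control library for *Ybx2* and *Eif4g3*, a pattern shown by 3.03% of all genes. With replicates 2 to 4 alone, *Papolb* and *Eif4g3* fell in cKO (adjusted p = 0.00251 and 0.00933 from edgeR), where 4.24% of all genes were called and 3.78% were called lower. In these 6 libraries 6 of the 10 genes were lower in every cKO than in every control library, namely *Boll*, *Ybx2*, *Ybx3*, *Rbm46*, *Papolb* and *Eif4g3*, against 10.6% of all genes.

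**Figure D1:**
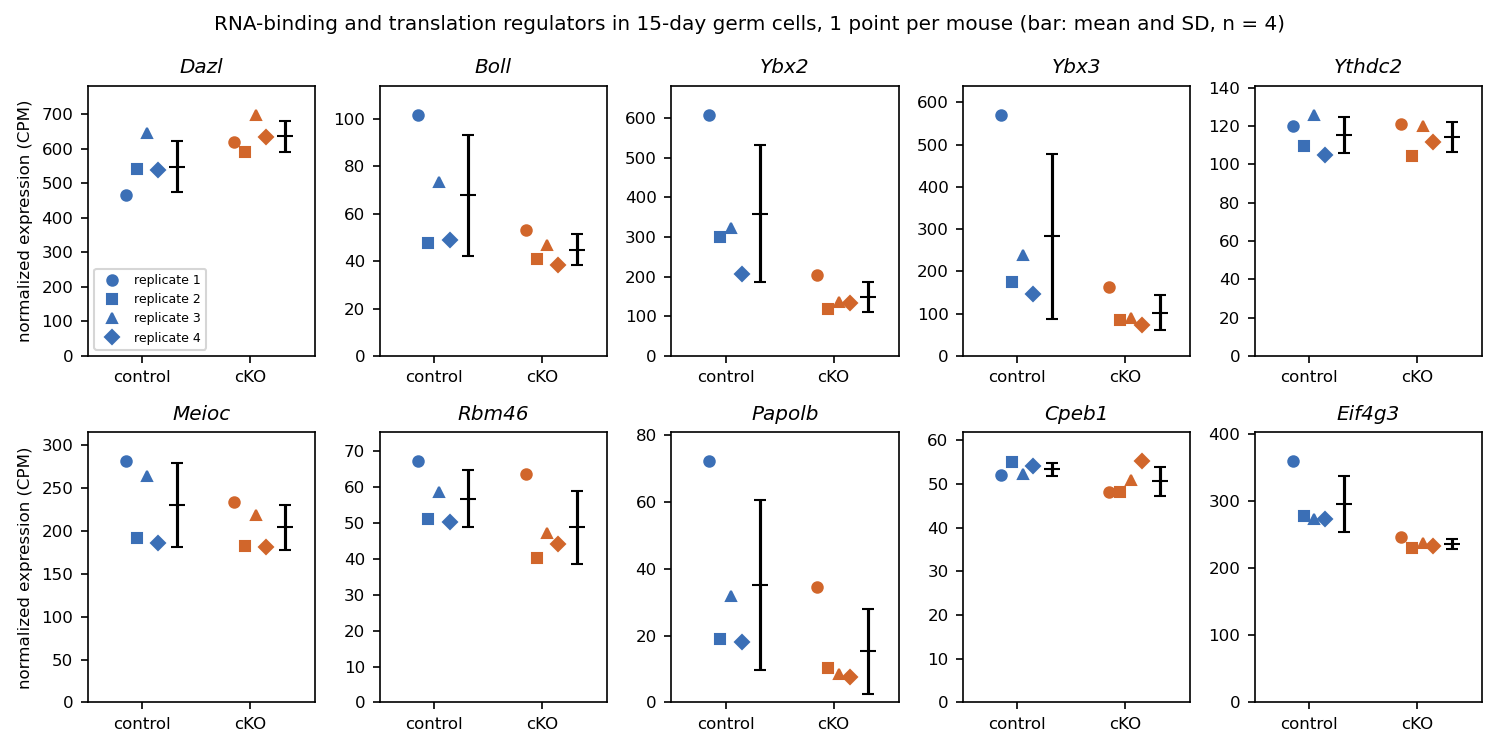
Normalized expression of each gene in CPM (vertical axes from 0) in control (blue) and cKO (orange) germ cells, with 1 point per mouse, marker shape for the replicate number, and a black bar for mean and SD (n = 4). *Ybx2* and *Eif4g3* are the genes with every cKO point below every control point, and the circles of replicate 1 lie highest in both genotypes for *Boll*, *Ybx2*, *Ybx3*, *Meioc*, *Rbm46*, *Papolb* and *Eif4g3*.

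The 10 genes spanned a wide range of transcript abundance, which is compared here in TPM because that unit accounts for gene length. In control germ cells *Ybx2* was the most abundant, at 609 ± 196 TPM (SD, n = 4), ahead of *Dazl* at 398 ± 46.4 and *Ybx3* at 300 ± 193 TPM. The ranges of these neighbours overlapped. *Meioc* at 111 ± 22 TPM, *Eif4g3* at 103 ± 17.9 TPM and *Boll* at 97.9 ± 33.9 TPM followed, and could not be ranked among themselves given their spread. *Rbm46* at 51.8 ± 5.93 TPM, *Cpeb1* at 40.1 ± 2.42 TPM and *Ythdc2* at 30.1 ± 3.09 TPM came next, each with a range clear of the next. *Papolb* was lowest at 13.7 ± 9.54 TPM, and its highest control library, at 27.6 TPM, reached above the lowest *Ythdc2* value of 26.9 TPM.

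In cKO germ cells *Dazl* headed the order at 448 ± 27.8 TPM (SD, n = 4), and its range of 423 to 477 TPM was clear of *Ybx2*, which lay between 241 and 289 TPM. *Dazl* exceeded *Ybx2* in 4 of 4 cKO libraries and in 1 of 4 controls, where control 4 had 404 TPM of *Dazl* and 401 TPM of *Ybx2*. *Ybx3* at 110 ± 38.8, *Meioc* at 93.2 ± 14.2, *Eif4g3* at 77.1 ± 2.11 and *Boll* at 69.6 ± 9.38 TPM formed a chain in which each overlapped the next. *Cpeb1* at 44.2 ± 3.6 and *Rbm46* at 43.6 ± 7.84 TPM also overlapped, whereas *Ythdc2* at 27.6 ± 1.88 and *Papolb* at 5.92 ± 4.87 TPM each stood clear of its neighbours. Summed over the 10 genes, controls had 1357 to 2361 TPM and cKO samples 1100 to 1290 TPM, without overlap. As a share of the expected counts of a library the genotypes did overlap, with control 4 at 0.166% and cKO 1 at 0.18%.

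The 250 bases before the start of the canonical transcript are shown for a gene estimated higher in cKO (*Dazl*) and a gene estimated lower (*Papolb*), so that their promoters can be read side by side, and no annotated exon lies in either window. They were read from GRCm39 on the strand of the gene, 5′ to 3′, with the start site directly after the last base. *Dazl* covers chr17:50600665-50600914 (66.8% G or C) and *Papolb* chr5:142515832-142516081 (62%), both on the reverse strand. Capitals mark the CCAAT box, read as CCAAT or its reverse complement ATTGG.
*Dazl*: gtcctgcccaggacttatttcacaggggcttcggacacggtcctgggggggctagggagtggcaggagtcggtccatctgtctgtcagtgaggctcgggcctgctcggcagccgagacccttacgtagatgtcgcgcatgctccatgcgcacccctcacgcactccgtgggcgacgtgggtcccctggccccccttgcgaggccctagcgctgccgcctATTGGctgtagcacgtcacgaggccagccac
*Papolb*: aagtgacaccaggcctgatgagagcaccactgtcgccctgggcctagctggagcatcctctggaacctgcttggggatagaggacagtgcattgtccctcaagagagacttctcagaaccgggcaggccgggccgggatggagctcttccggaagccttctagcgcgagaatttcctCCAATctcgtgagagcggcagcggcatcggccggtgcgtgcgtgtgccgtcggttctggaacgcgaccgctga
The last base of the match lay 27 bases before the start in *Dazl* and 69 bases before it in *Papolb*. Of the windows of 9 of the 10 genes (all but *Ybx3*), 6 held a CCAAT box (*Dazl*, *Ybx2*, *Ythdc2*, *Meioc*, *Rbm46* and *Papolb*), against 36.5% of 21757 such windows in the genome. The windows of *Boll* and *Cpeb1* overlap annotated exons of the gene itself, and that of *Ybx2* overlaps exons of *Ybx2* and of *Eif5a*. Those of *Meioc*, *Rbm46* and *Eif4g3* overlap exons of other genes. Whether exons lie in the window of *Ythdc2* is not given here. On both strands CAGTTG, a motif of MYB factors, was found in the window of *Ythdc2* alone (10.3% of all windows), and GTTGCC, a motif bound by RFX factors, in that of *Meioc* alone (9.45%). The cyclic AMP response element TGACGTCA (1.7% of all windows) and CNCCTCAG, a motif reported for STRA8 (6.27%), were in none of these 9. A match in these letters is a description of the sequence and not a binding site.

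Among the DAZ family genes, *Dazl* encodes a translation regulator needed from early germ cell life onward, and *Boll* encodes its relative BOULE, which acts in later meiotic and haploid cells. *Dazl* (chromosome 17, 50586366 to 50600664, reverse strand, GRCm39) was at 467, 542, 645 and 539 CPM in controls 1 to 4 and at 621, 591, 698 and 635 CPM in cKO 1 to 4. The cKO libraries were high as a group, but control 3 exceeded 3 of them, and control 1 was the lowest library. The means were 548 ± 73.3 CPM in control and 636 ± 45.2 CPM in cKO (SD, n = 4), a log2 fold change of 0.22 (SE 0.10, edgeR adjusted p = 0.548), and an exact permutation test of the single gene gave p = 0.114, two-sided. *Dazl* was the only gene of the 10 with an estimate above 0. Without replicate 1 the log2 fold change was 0.16 (SE 0.07, edgeR adjusted p = 0.347), and with the replicate block it was 0.22 (SE 0.06, edgeR adjusted p = 0.0131).

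*Boll* (chromosome 1, 55283803 to 55402950, reverse strand) was at 102, 47.5, 73.4 and 48.7 CPM in controls 1 to 4 and at 53, 40.8, 46.9 and 38.4 CPM in cKO 1 to 4. Controls 1 and 3 were high, controls 2 and 4 lay below cKO 1, and the other 3 cKO libraries were under all controls. The log2 fold change was -0.60 (SE 0.25, edgeR adjusted p = 0.553), or 1.52-fold lower in cKO, and the exact permutation p was 0.114. With replicates 2 to 4 alone it was -0.43 (SE 0.20, edgeR adjusted p = 0.431), without control 1 alone it was -0.33, and with the replicate block it was -0.55 (SE 0.10, edgeR adjusted p = 0.00153). Exons of *Mars2* on the opposite strand share 3827 bases with *Boll*, 38.2% of its exonic sequence. Exonic sequence is here, and for the other genes, merged over all annotated transcripts. It is 10021 bases for *Boll*, whereas the canonical transcript has 882 bases, fewer than the shared stretch. In these non-stranded libraries reads of that stretch cannot be assigned to a strand. *Mars2*, a mitochondrial methionyl-tRNA synthetase gene, had 658 to 1098 counts per library and a log2 fold change of -0.11 (standard error 0.12). Within a library the TPM ratio of *Boll* to *Dazl* was 0.254 ± 0.118 in control and 0.156 ± 0.027 in cKO (SD, n = 4), with overlap between 0.183 in control 2 and 0.191 in cKO 1.

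The Y-box genes *Ybx2* and *Ybx3* showed the lowest cKO to control ratios of the abundant members. Their proteins, MSY2 and MSY4, bind DNA and mRNA through a cold shock domain and package stored messages in spermatocytes and spermatids. *Ybx2* (chromosome 11, 69826474 to 69832432, forward strand) was at 608, 300.4, 322 and 206 CPM in controls 1 to 4 and at 205, 119, 136 and 133 CPM in cKO 1 to 4. All cKO libraries lay under all controls, although the highest cKO value of 204.5 CPM, in replicate 1, was close to the lowest control value of 205.5 CPM, in replicate 4. Mean expression was 359 ± 173 CPM in control and 148 ± 38.3 CPM in cKO (SD, n = 4), 2.42-fold lower, with a log2 fold change of -1.28 (SE 0.37, edgeR adjusted p = 0.433). The exact permutation p was 0.0286, the smallest that 4 against 4 samples can give, and 10 genes were tested in this way with no adjustment. Adjusted p from DESeq2 was 0.0611. With replicates 2 to 4 alone *Ybx2* was 2.14-fold lower in cKO (edgeR adjusted p = 0.0926), at 276 ± 62.1 against 129 ± 9.09 CPM (SD, n = 3). Exons of *Eif5a* on the opposite strand cover 30.5% of the exonic bases of *Ybx2*. *Eif5a* encodes a translation elongation factor, was present at 6018 to 8712 counts per library, and had a log2 fold change of -0.07 (standard error 0.10).

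*Ybx3* (chromosome 6, 131341810 to 131365448, reverse strand) was at 570.3, 175, 240 and 147 CPM in controls 1 to 4 and at 163, 85.2, 89.8 and 72.1 CPM in cKO 1 to 4. Control 1 was far above every other library, and cKO 1 was the single cKO library above the lowest control. The means of 283 ± 196 and 103 ± 40.9 CPM (SD, n = 4) correspond to a 2.76-fold lower level in cKO, with a log2 fold change of -1.47 (SE 0.52, edgeR adjusted p = 0.506). Its exact permutation p was 0.0571. Without replicate 1 the genotypes no longer overlapped, at 187 ± 47.8 and 82.4 ± 9.18 CPM (SD, n = 3), and *Ybx3* was 2.28-fold lower in cKO (edgeR adjusted p = 0.104). Without control 1 alone the log2 fold change was -0.87, and with the replicate block it was -1.33 (SE 0.16, edgeR adjusted p = 0.0159). Neither Y-box gene was past the threshold in those 6 libraries with edgeR, while both were with DESeq2, which called 4.45% of all genes there. The TPM ratio of *Ybx2* to *Ybx3* was 2.29 ± 0.561 in control and 2.55 ± 0.681 in cKO (SD, n = 4). It was lowest in replicate 1 of both genotypes, at 1.49 and 1.74, and overlapped widely. The paralog *Ybx1*, which is expressed in most cell types, had a log2 fold change of -0.47 (SE 0.25, edgeR adjusted p = 0.63) and fell in replicates 2 to 4 alone (log2 fold change -0.29, adjusted p = 0.00364 from edgeR).

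**Figure D2:**
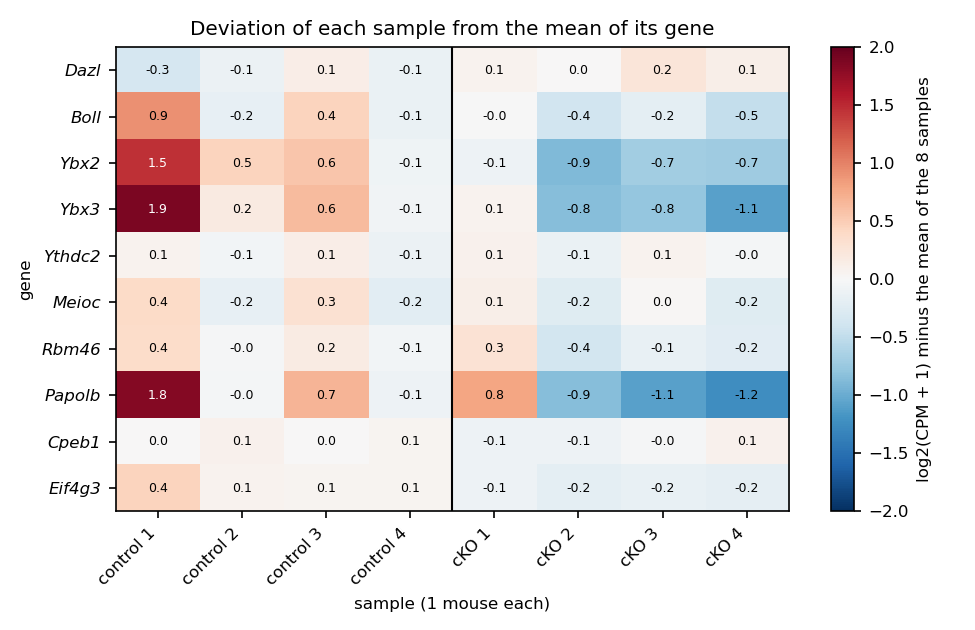
Deviation of each sample from the mean of its gene over the 8 samples, in log2(CPM + 1), with genes in rows, the 4 control and then the 4 cKO samples in columns, and the value printed in each cell. Control 1 is the darkest red column for *Boll*, *Ybx2*, *Ybx3* and *Papolb*, while *Ythdc2* and *Cpeb1* are near 0 in every sample.

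*Ythdc2*, *Meioc* and *Rbm46* act together. YTHDC2 is an RNA helicase with a YTH domain, MEIOC is its partner, and RBM46 is an RNA-binding protein that associates with both, and loss of any of them is known to stop germ cells early in meiosis. *Ythdc2* was at 120.2, 109.8, 126 and 105.0 CPM in controls 1 to 4 and at 121, 104.6, 120.0 and 112 CPM in cKO 1 to 4. High and low values were mixed between genotypes. The means were 115 ± 9.51 and 114 ± 7.77 CPM (SD, n = 4), and the 95% interval of the log2 fold change ran from -0.19 to 0.16 (edgeR adjusted p = 0.986), so that changes beyond that range lay outside the interval. *Ythdc2* lies on chromosome 18 (44960813 to 45022791, forward strand) and has 30 exons in its canonical transcript.

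*Meioc* (chromosome 11, 102554542 to 102573063, forward strand) was at 281, 192, 264 and 186 CPM in controls 1 to 4 and at 234, 182, 219 and 182 CPM in cKO 1 to 4. Replicates 1 and 3 were the higher libraries in both genotypes, and the ranges overlapped. The log2 fold change was -0.18 (standard error 0.15, 95% interval -0.52 to 0.16, adjusted p = 0.754 from edgeR). *Rbm46* (chromosome 3, 82743830 to 82783834, reverse strand) was at 67.1, 51, 58.6 and 50.1 CPM in controls 1 to 4 and at 63.5, 40.3, 47.1 and 44.2 CPM in cKO 1 to 4. The libraries of cKO replicates 2 to 4 were under all controls, and cKO 1 was above all controls but control 1. Its log2 fold change was -0.22 (standard error 0.15, 95% interval -0.54 to 0.10, adjusted p = 0.678 from edgeR), and without replicate 1 it was -0.28 (SE 0.09, edgeR adjusted p = 0.0776). Relative to *Ythdc2* in the same library, the TPM ratio of *Meioc* was 3.73 ± 1 in control and 3.37 ± 0.489 in cKO, and that of *Rbm46* was 1.74 ± 0.336 and 1.58 ± 0.266 (SD, n = 4). Both ratios overlapped between genotypes.

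Of the genes that act on poly(A) tails, *Papolb* encodes a testis-specific cytoplasmic poly(A) polymerase of late spermatocytes and spermatids, and *Cpeb1* encodes a protein that binds the cytoplasmic polyadenylation element and turns translation on or off. *Papolb* (chromosome 5, 142511593 to 142515831, reverse strand) has a single exon and lies inside *Radil*, with which it shares no exonic bases. It was at 72.2, 19, 31.8 and 18 CPM in controls 1 to 4 and at 34.5, 10.4, 8.66 and 7.66 CPM in cKO 1 to 4. Replicate 1 was 3.15 times the mean of the other controls and 3.88 times the mean of the other cKO libraries, and cKO 1 was higher than 3 of 4 controls. Over all 8 samples the log2 fold change was -1.20 (SE 0.70, edgeR adjusted p = 0.663), with means of 35.3 ± 25.4 and 15.3 ± 12.8 CPM (SD, n = 4). In replicates 2 to 4 the genotypes did not overlap, and *Papolb* fell from 22.9 ± 7.67 to 8.89 ± 1.36 CPM (SD, n = 3), a log2 fold change of -1.37 (SE 0.22, edgeR adjusted p = 0.00251). Leaving out control 1 alone gave -0.58 and leaving out cKO 1 alone gave -1.98, neither past the threshold, and the replicate block gave -1.25 (SE 0.14, edgeR adjusted p = 1.57e-06). Its ratio to *Papola*, the poly(A) polymerase gene of most cell types, was 0.08 ± 0.061 in control and 0.031 ± 0.0272 in cKO (SD, n = 4), again with cKO 1 inside the control range.

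*Cpeb1* (chromosome 7, 80996774 to 81105213, reverse strand) was at 52, 55.1, 52.4 and 54 CPM in controls 1 to 4 and at 48.1, 48.2, 51 and 55.2 CPM in cKO 1 to 4. Of the cKO libraries 3 were under all controls and cKO 4 was above them all. The spread was the smallest of the 10 genes, and the 95% interval of the log2 fold change was -0.25 to 0.10 (estimate -0.08, adjusted p = 0.802 from edgeR). In TPM the estimate had the opposite sign, at 0.14, so no direction is given for *Cpeb1*. Replicate 1 was close to the other libraries in both genotypes, unlike for *Papolb*.

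*Eif4g3* (chromosome 4, 137720333 to 137935819, forward strand), known from a mouse mutation that arrests male meiosis, had the lowest unadjusted p of the 10 genes. It was at 359, 277, 274 and 274 CPM in controls 1 to 4 and at 247, 229.5, 237 and 233 CPM in cKO 1 to 4. Every control library was above every cKO library, control 1 was far above the other 3 controls, and the cKO libraries lay close together. The means of 296 ± 42.2 and 237 ± 7.54 CPM (SD, n = 4) gave a log2 fold change of -0.32 (SE 0.09, edgeR adjusted p = 0.344), a level 1.25-fold lower in cKO, with an exact permutation p of 0.0286. Without replicate 1 *Eif4g3* fell from 275 ± 1.93 to 233 ± 3.92 CPM (SD, n = 3), a log2 fold change of -0.24 (SE 0.06, edgeR adjusted p = 0.00933). It was -0.21 without control 1 alone, which was not past the threshold, and -0.31 with the replicate block (SE 0.06, edgeR adjusted p = 0.000667). The TPM ratio of *Eif4g3* to *Eif4g1*, the paralog used in most cell types, was 0.661, 0.418, 0.524 and 0.474 in controls 1 to 4 and 0.387, 0.363, 0.379 and 0.348 in cKO 1 to 4. It was the only one of the 7 ratios computed in which the genotypes did not overlap. *Eif4g1* itself had a log2 fold change of 0.09 and *Eif4g2* of 0.04, and neither was past the threshold.

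**Figure D3:**
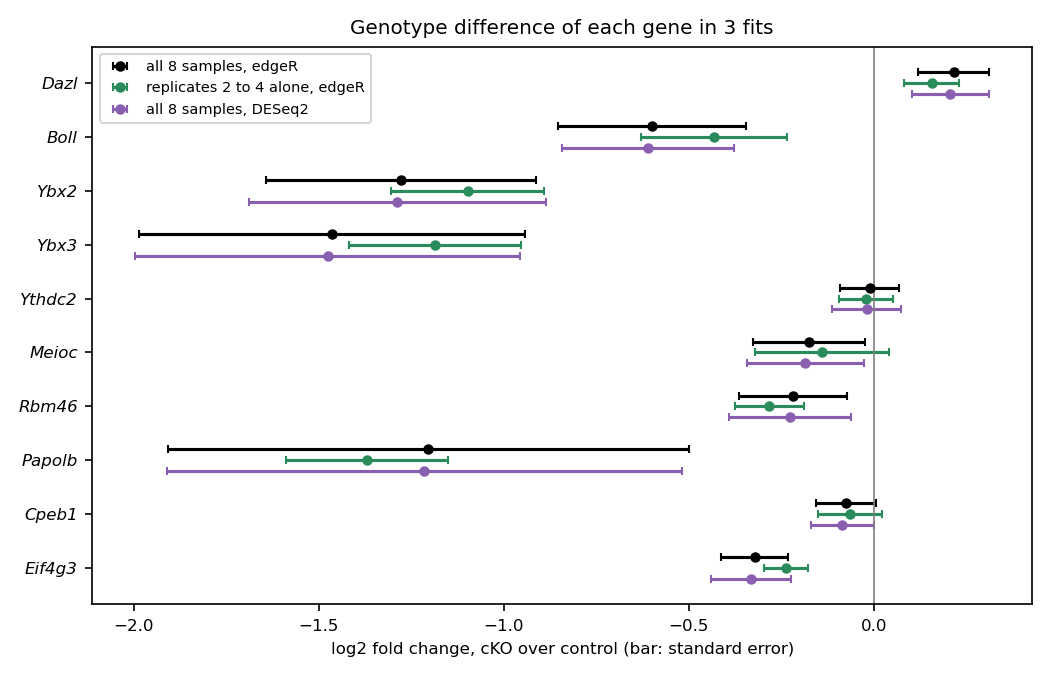
Log2 fold change of each gene, cKO over control (horizontal axis), with standard errors as bars, from edgeR on all 8 samples (black), edgeR on replicates 2 to 4 alone (green) and DESeq2 on all 8 samples (violet). Standard errors of *Ybx3* and *Papolb* are wide over all 8 samples, at 0.52 and 0.70, and shorter without replicate 1, at 0.23 and 0.22, while the signs do not change.

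**Figure D4:**
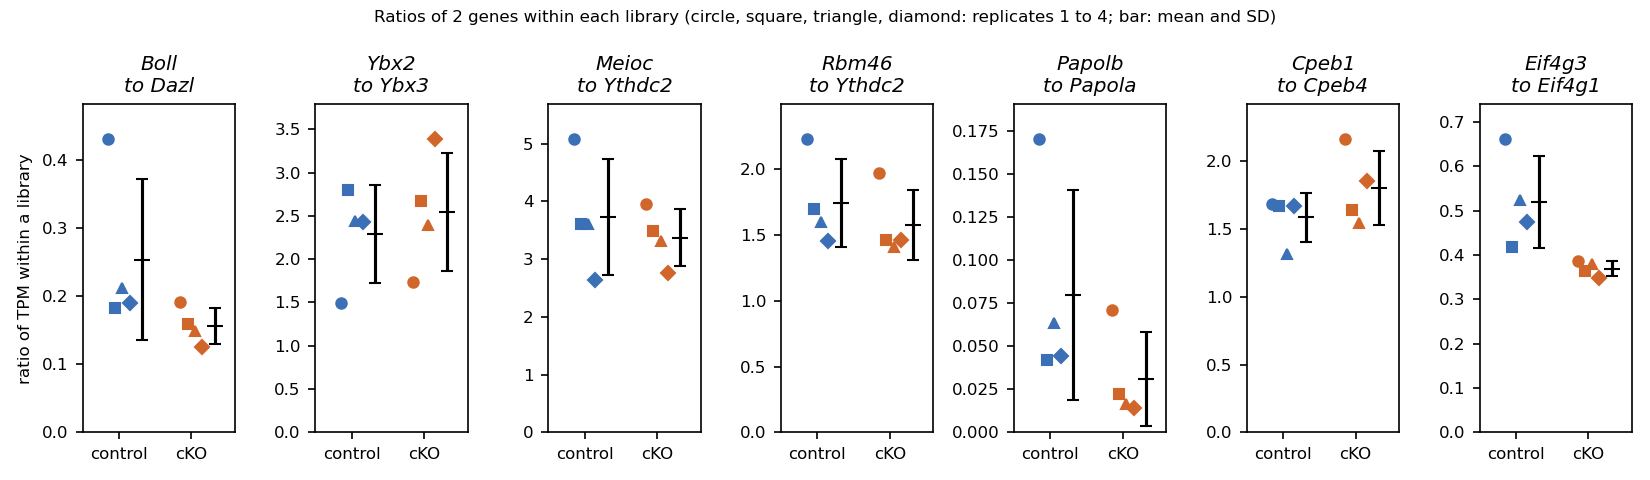
TPM ratio of a gene to a related gene within each library (vertical axes from 0), control in blue and cKO in orange, with a marker shape per replicate and mean and SD as black bars (n = 4). The ratio of *Eif4g3* to *Eif4g1* is the panel without overlap, at 0.418 to 0.661 in control and 0.348 to 0.387 in cKO.

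The genes with the lowest cKO to control ratios were also those in which control 1 was highest against the other controls. Control 1 enters both values, so this match was partly fixed in advance. Without control 1 the log2 fold change was -0.58 for *Papolb* and -0.87 for *Ybx3*. The ratio of replicate 1 to the mean of the other libraries of its genotype was 3.15 in control and 3.88 in cKO for *Papolb*, 3.05 and 1.98 for *Ybx3*, 2.2 and 1.58 for *Ybx2* and 1.8 and 1.26 for *Boll*, against 0.811 and 0.968 for *Dazl*. Pachytene spermatocyte markers moved in the same way. Of the 11 genes of that list, from which *Ybx2* was left out, 10 had estimates below 0 in cKO and none passed the test with edgeR, and their summed level was 687 to 2665 TPM in control and 313 to 896 TPM in cKO (exact permutation p = 0.0857). The paper, which used DESeq2, lists *Piwil1*, a gene of this list, among its top down-regulated genes. Most of the summed level came from *Ldhc*, a germ cell lactate dehydrogenase gene, and *Hspa2*, a chaperone gene of spermatocytes. *Pgk2*, a later marker, was at 23.3, 2.33, 3.97 and 3.1 TPM in controls 1 to 4 and at 8.85, 0.38, 0.32 and 0.17 TPM in cKO 1 to 4. Spermatid markers were low, at 33.8 to 80.7 TPM in control and 18.8 to 34.3 TPM in cKO summed over 10 genes, and *Tnp2* and *Prm1* were at 0 in all 8 libraries. The part of these markers in the differences of *Ybx2*, *Ybx3*, *Boll*, *Papolb* and *Eif4g3* was not tested, and in bulk RNA fewer cells of a type and less RNA per cell cannot be told apart. Leptotene and zygotene markers overlapped between genotypes, at 1006 to 1655 TPM in control and 1030 to 1349 TPM in cKO.

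Profiles over the 8 samples were compared with those of 10382 genes of at least 10 CPM, by the root-mean-square difference in log2(CPM + 1) after centring each gene on its mean. For *Ybx2* the nearest were *Dnai1* (distance 0.088), *Rsph1* and *Usp2*, and for *Papolb* they were *Acrbp* (0.139), *Tekt1* and *Ak9*. *Dnai1*, *Rsph1* and *Tekt1* encode parts of cilia and flagella, and *Acrbp* encodes an acrosomal protein. For *Ybx3* they were *Dnah1* (0.109), a dynein heavy chain gene, *Fabp9* and *Ldha*, and for *Boll* they were *Slc26a8* (0.075), *Pde3b* and *Poll*. *Dazl* was nearest to *Tyw5* (0.054), *Nrip3* and *Csgalnact2*, *Meioc* to *Fanci* (0.065), *Gmfb* and *Actr10*, *Rbm46* to *Inafm2* (0.061), *2610301B20Rik* and *Sec23a*, and *Eif4g3* to *Dctn2* (0.044), *C2cd3* and *Nit1*. These distances describe 8 samples that share replicate 1, and a small distance is easier to reach for a gene that varies little.

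To set the 10 genes beside other regulators of mRNA, 129 genes were listed in 7 groups by role, of which 128 could be tested (*Pabpc5* was too low). Over all 8 samples 0 of the 128 passed with edgeR. Its unadjusted p was under 0.05 for 15, with 8 estimates below and 7 above 0 (6.28% and 2.62% of all genes). DESeq2, which called 1.5% of all genes, called *Dzip1* and *Khdrbs3*, both lower. The median log2 fold change of the 128 was 0.017, near the 0.007 of all genes, and 58 of the 128 had estimates below 0. In replicates 2 to 4 alone edgeR called 11 of them, 9 lower and 2 higher (3.78% and 0.451% of all genes). The 2 higher were *Mettl14* and *Fmr1* (*Fmr1* log2 fold change 0.21, edgeR adjusted p = 0.0469). Those lower included *Rbmxl2* (log2 fold change -0.28, edgeR adjusted p = 0.034), and the others are given below or above. Over all 8 samples with the replicate block it called 13, 12 lower and 1 higher (6.45% and 0.802% of all genes).

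By group, the medians were 0.10 for DAZ partners, Pumilio and Nanos genes (9 tested), -0.01 for Y-box and mRNA storage or decapping genes (14), 0.02 for m6A writers, readers and erasers (17), -0.02 for decay and deadenylation genes (17), -0.04 for poly(A) polymerase, CPEB and cleavage genes (25), 0.04 for cap-binding and poly(A)-binding genes (21) and 0.04 for other RNA-binding proteins (25). In the first group *Dzip1*, named for its binding to DAZ and required for cilia, was at 48.4, 18.3, 21.7 and 19.8 CPM in controls 1 to 4 and at 18.3, 11.6, 9.21 and 10.6 CPM in cKO 1 to 4. The genotypes were apart, with controls above, though control 2 at 18.28 CPM and cKO 1 at 18.26 CPM were almost level. The log2 fold change was -1.12 (SE 0.37, edgeR adjusted p = 0.446 and 0.0364 from DESeq2), and in replicates 2 to 4 *Dzip1* fell by 0.93 on the log2 scale (edgeR adjusted p = 2.35e-05). *Dazap1* had a log2 fold change of -0.30 (edgeR adjusted p = 0.556).

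In the group of poly(A)-binding genes *Pabpc2* and *Pabpc6*, retrogene relatives of *Pabpc1*, had the largest estimates. *Pabpc2* was at 94.7, 6.94, 18.5 and 8.12 CPM in controls 1 to 4 and at 32.2, 2.2, 2.3 and 1.28 CPM in cKO 1 to 4. As for *Papolb*, replicate 1 was the highest library in both genotypes and cKO 1 was above 3 of 4 controls. The log2 fold changes were -1.75 (standard error 1.38) for *Pabpc2* and -1.49 (standard error 0.94) for *Pabpc6*, and neither passed over all 8 samples with edgeR. Without replicate 1 both were called lower in cKO (adjusted p = 0.0277 for *Pabpc2* and 0.00104 for *Pabpc6* from edgeR). *Pabpc1* itself had a log2 fold change of -0.44 (edgeR adjusted p = 0.568) and fell by 0.38 in replicates 2 to 4 alone (edgeR adjusted p = 0.0123). How reads were divided among these copies was not tested.

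Among the other groups *Khdrbs3*, a splicing regulator gene, averaged 49.4 ± 17.8 CPM in control against 24.9 ± 8.82 CPM in cKO (SD, n = 4), with a log2 fold change of -0.99 (SE 0.32, edgeR adjusted p = 0.452 and 0.0302 from DESeq2), and it also fell in replicates 2 to 4 alone (edgeR adjusted p = 0.0296). *Rbm44*, a germ cell RNA-binding protein gene, had a log2 fold change of -0.46 and fell in replicates 2 to 4 alone (edgeR adjusted p = 0.02). *Mettl14*, part of the m6A methyltransferase, was higher in every cKO than in every control library, as were 2.47% of all genes, at 42 ± 2.03 and 50.5 ± 3.92 CPM (SD, n = 4), with a log2 fold change of 0.27 (edgeR adjusted p = 0.433), and it rose in replicates 2 to 4 alone (log2 fold change 0.30, edgeR adjusted p = 0.0496). *Igf2bp3*, an m6A reader gene, was at -0.29, the decapping gene *Dcp1b* at -0.34, the nonsense-mediated decay genes *Upf1* and *Upf3a* at -0.25 and -0.40, and the cleavage factor gene *Cstf3* at -0.19 on the log2 scale, and 0 of these 5 passed over all 8 samples with edgeR, where *Upf1* and *Dcp1b* had an unadjusted p under 0.05. Of the paralogs of the 10 genes, *Cpeb2* was at -0.41 (edgeR adjusted p = 0.437) and fell in replicates 2 to 4 alone (log2 fold change -0.34, edgeR adjusted p = 0.04), while *Cpeb3*, *Cpeb4*, *Ythdc1*, *Papola* and *Papolg* lay between -0.08 and 0.09.

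**Figure D5:**
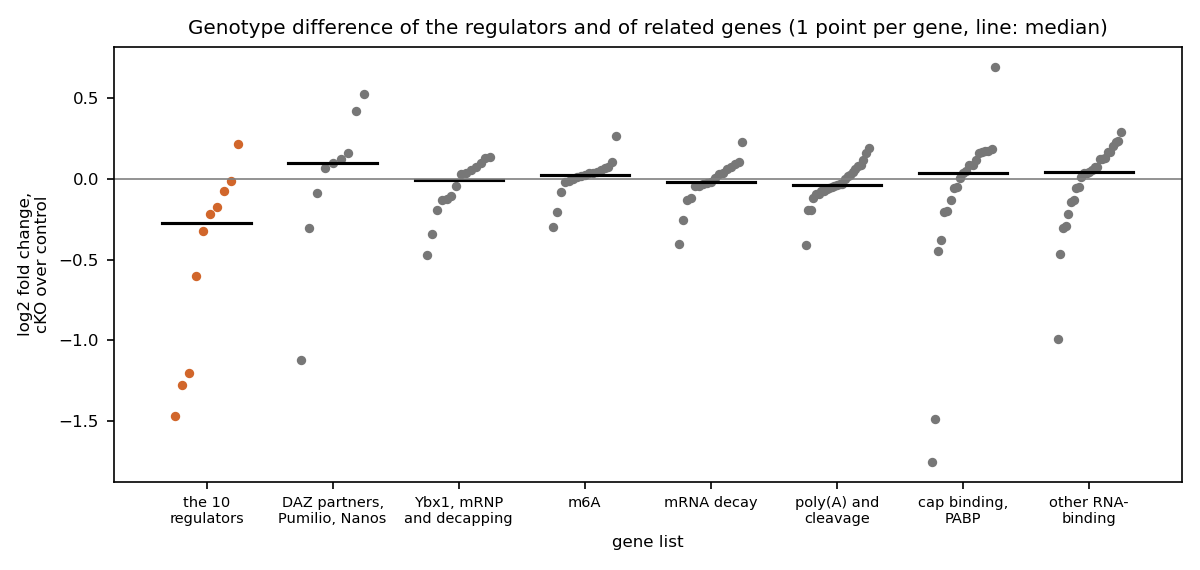
Log2 fold change, cKO over control, of the 10 regulators (orange) and of the 128 related genes in 7 groups by role (grey), with 1 point per gene and a black line at the median. The median of the 10 regulators is -0.27, and the group medians lie between -0.04 and 0.10.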

How the data were processed

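Germ cells of 8 mice were profiled by non-stranded sequencing of polyadenylated RNA, with 4 libraries per genotype. The authors aligned reads to mm39 with STAR 2.7.9a and deposited RSEM 1.3.3 expected counts for 55357 genes, unfiltered and not normalized between samples. TPM (transcripts-per-million values), also deposited by the authors from RSEM, are scaled within each library.

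Expected counts were rounded to whole numbers, as 15.2% of the non-zero values were not whole. The 20187 genes that reached a TPM of 1 in any sample were fitted together with edgeR 4.0.16 (TMM normalization, robust fit, no covariate) and tested with its quasi-likelihood F-test. The edgeR adjusted p is the Benjamini-Hochberg value over these 20187 genes, and 0.05 was the threshold. Intervals of 95% used the moderated degrees of freedom of the fit. The 10 genes were also tested singly by a two-sided exact permutation test on log2(CPM + 1), whose smallest p is 0.0286 for 4 against 4 and 0.1 for 3 against 3. Alternatives were DESeq2 1.42.0, limma 3.58.1 (voom, and trend on log2 TPM with pseudocounts of 1 and 0.1), other scalings and filters, the replicate number as a block, leaving out each sample, and replicates 2 to 4 alone. The edgeR test without a block was tried on simulated counts before use. Those counts had the same relative spread for every gene and no replicate that stood apart, so they do not show how the test does on these data.

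Positions are from GENCODE M39 on GRCm39, in which 10 of 10 genes were found by Ensembl identifier, and sequences are from the GRCm39 genome, of which 1 promoter window is not reported here. R 4.3.3 and Python 3.11.15 were used. The 10 genes, the lists of related genes and markers, and the use of replicates 2 to 4 were chosen with earlier results of these data known. Named besides the 10 genes were *Mgat2*, paralogs, called genes or else the 2 largest estimates per list (mean of at least 5 CPM), and the 3 nearest profiles of each gene that varied more than the median gene. *Pabpc1*, *Rbmxl2*, *Fmr1*, *Clu*, *Aard*, *Radil*, *Rbm46os*, *Mars2*, *Eif5a*, *Ldhc*, *Hspa2* and *Pgk2* were named after their values were seen.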

Additional observations from a re-analysis of the deposited data

Results flagged for a closer look

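In 2 of the 22 groups of 4 samples examined (11 genes, *Mgat2* included, in each genotype), the most extreme sample lay farther from the rest than Dixon's 95% limit allows, and chance alone flags about 1 group in 20. For *Papolb* in cKO germ cells, cKO 1 was at 34.45 CPM and the other cKO libraries were at 7.659 to 10.35 CPM, a gap of 0.899 of the range. For *Eif4g3* in control germ cells, control 1 was at 359.2 CPM and the other controls were at 273.6 to 277.2 CPM, a gap of 0.958 of the range. Both are libraries of replicate 1, in which the summed pachytene markers were highest in their genotype, at 896 TPM in cKO 1 and 2665 TPM in control 1. The part of those markers was not tested.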

How the results depend on the processing

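The 8 genes called over all genes with edgeR became 302 with DESeq2, 17 with library totals, 35 without a filter, and 0 with filterByExpr, limma-voom and limma-trend at either pseudocount. Leaving out 1 sample gave 0 to 32 (32 without control 4, 24 without control 1, and 0 without control 3, cKO 3 or cKO 4). Each of these settings called 0 of the 10 regulators. Replicates 2 to 4 alone gave 855 genes over all, 2 of the 10 and 11 of the related genes with edgeR, and 899, 4 (*Ybx2*, *Ybx3*, *Papolb* and *Eif4g3*) and 9 with DESeq2, a setting added after seeing the data. DESeq2 on all 8 samples called 2 related genes. The cause of these shifts was not tested.

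Same-numbered samples are different mice, and no source pairs them. Deviations from the genotype means of same-numbered samples correlated across genes at 0.697, 0.296, 0.087 and 0.324 over all tested genes (mean 0.351, against -0.089 for other pairs), and at 0.804, 0.479, 0.143 and 0.466 over the 11931 genes of at least 5 CPM (mean 0.473, against -0.093). In the second set every pair was above 0.1 and in the first 1 pair was below it, and replicate 1 was the single control that matched its own number best. Whether the numbers pair the mice was therefore left undecided, and values with and without the block are given. With the replicate block edgeR called 1464 genes (7.25%), 5 of the 10 (*Boll*, *Ybx3*, *Papolb* and *Eif4g3* lower, *Dazl* higher) and 13 related genes. DESeq2 with the replicate block, also added later, called 1223 genes, 6 of the 10 and 12 related genes.

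Over all 8 samples 2 of the 10 genes were lower in every cKO than in every control library, against 3.03% of all genes. With replicates 2 to 4 alone it was 6, against 10.6%. When 1 sample was left out the genotypes were apart in 2 to 6 (6 without cKO 1). The exact test passed 2, then 0 with replicates 2 to 4 alone, where 0.1 is the smallest p, and 1 to 3 when 1 sample was left out. For the exact test and for leaving out 1 sample no share of all genes is given. Fewer samples make the genotypes easier to separate for any gene, so the rise to 6 is not a result about the 10. *Cpeb1* changed sign in limma-trend, to 0.1356 and 0.1384 with pseudocounts of 1 and 0.1. *Ythdc2* ranged from -0.0477 to 0.0346 when 1 sample was left out, and was above 0 without control 1 (0.0113), control 3 (0.0346), cKO 2 (0.0303) or cKO 4 (0.0004). The other 8 of the 10 kept their sign in all 20 alternatives, but leaving out 1 sample moved several estimates by over 1.5 times. Without control 1 *Papolb* was at -0.58, *Ybx3* at -0.87, *Boll* at -0.33, *Rbm46* at -0.12, *Meioc* at -0.06 and *Eif4g3* at -0.21, without cKO 1 *Papolb* was at -1.98 and *Rbm46* at -0.37, without control 3 *Meioc* was at -0.10, without cKO 2 *Rbm46* was at -0.13, and without cKO 4 *Cpeb1* was at -0.12. The 7 ratios moved by less than the spread between replicates, but that spread was wide and some depended on replicate 1. The *Papolb* to *Papola* ratio in cKO, relative to control, was 0.388 over all 8 samples. It was 0.622 without control 1 and 0.22 without cKO 1. For *Boll* to *Dazl* the same value was 0.615, and 0.801 without control 1.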

Other observations

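For some of the 10 genes the relation of expected count to TPM, which follows the average transcript length that RSEM assigned, varied between libraries. The highest value over the lowest of the 8 libraries was 1.43 for *Ybx2*, 1.34 for *Cpeb1*, 1.3 for *Ythdc2* and 1.25 for *Boll* and *Meioc*, against a median of 1.15 over 10391 genes, and it was 1.01 for the single-exon gene *Papolb*. For *Ybx2* it was highest in replicate 1 of both genotypes, at 1.2 and 1.21 relative to the mean of the gene over the 8 libraries, after scaling each library by its median gene. For *Cpeb1* all cKO libraries (0.857 to 0.987) were below all controls (0.99 to 1.15), and its log2 difference was 0.14 in TPM and -0.08 in CPM. Which transcripts carried these differences was not analysed here.

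*Radil*, whose intron on the same strand holds *Papolb*, had a log2 fold change of -0.41 (SE 0.12, edgeR adjusted p = 0.355), and cKO 1, at 80.39 CPM, was just above control 4, at 80.12 CPM. *Rbm46os*, a non-coding gene on the strand opposite to *Rbm46* that covers 6.77% of its exonic bases, had 12 to 40 counts per library and a log2 fold change of -0.87 (SE 0.37, edgeR adjusted p = 0.53).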
